A study of Mus musculus with 16 samples.

Results

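The 34 genes described here make or regulate cholesterol and fatty acids, and they were picked by name from the gene tables of RNA-seq libraries of mouse pancreatic islets. All 34 were found among the 54146 genes listed, and all 34 were among the 15204 genes that passed the filters on biotype, variance and detection. They were grouped as 7 regulators (Srebf1, Srebf2, Scap, Insig1, Insig2 and Mlxipl, with the cholesterol carrier Stard4 counted among them), 17 cholesterol enzymes (Acat2, Hmgcs1, Mvk, Pmvk, Mvd, Idi1, Fdps, Fdft1, Sqle, Lss, Cyp51, Msmo1, Nsdhl, Hsd17b7, Ebp, Sc5d and Dhcr7) and 10 fatty acid enzymes (Acly, Acaca, Acacb, Fasn, Scd1, Scd2, Elovl6, Elovl5, Fads1 and Fads2).

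Both pathways start from cytosolic acetyl-CoA. The transcription factors SREBP-2 and SREBP-1, encoded by Srebf2 and Srebf1, are held in the endoplasmic reticulum with the sterol sensor SCAP by the INSIG proteins and reach the nucleus when membrane sterol falls, SREBP-2 acting mainly on cholesterol genes and SREBP-1c mainly on fatty acid genes. ChREBP, encoded by Mlxipl, activates fatty acid synthesis genes when glucose metabolism is high and is abundant in beta cells.

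The study set out to relate chromatin accessibility to gene expression in the founder strains of the Diversity Outbred mice, and its RNA-seq part has 91 libraries in 16 samples, 1 per strain and sex. All mice were 26 weeks old and all were fed a high-fat diet, so no strain has a control diet. The strains were 129 (labelled 129S1_SvImJ; 5 female and 5 male libraries), AJ (7 and 7), B6 (9 and 9), CAST (6 and 8), NOD (5 and 5), NZO (3 and 1), PWK (1 and 4) and WSB (9 and 7). The inbred strains carry no transgene in the labels, and whether each library is a separate mouse is not given, so the p-values measure the spread between libraries, which may be partly technical.

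The library totals ran from 16928552 to 35196145 counts with a median of 27485367, and no pair of libraries held the same values. The 4 beta cell markers Ins1, Ins2, Slc2a2 and Mafa summed to strain medians of 310199 to 497873 TPM, an abundance that corrects for transcript length and sums to the same total in every library, so the defining markers of the labelled tissue were present. In 12 libraries, 6 of 129, 2 of NOD and 4 of WSB, Xist and the Y-linked genes went against the labelled sex, so that sex results are given with and without them and refer to the label. Running numbers 66 to 100 hold all libraries of 129, NOD, NZO and PWK, and numbers 1 to 32 and 34 to 65 hold those of AJ, B6, CAST and WSB. Strain and number range therefore cannot be told apart between these sets, and the labels name 4 waves of animals without tying libraries to them. In whole islets, fewer cells of a type and less RNA per cell also cannot be told apart.

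On the TPM scale the level differed widely between members. Acly, the ATP citrate lyase that makes cytosolic acetyl-CoA, was the highest at 341 ± 79.6 TPM (SD over 91 libraries), followed by Mlxipl at 179 ± 64.6 TPM and Insig1 at 70.1 ± 22.5 TPM. The lowest were Acacb, the mitochondrial acetyl-CoA carboxylase, at 1.24 ± 0.614 TPM, Hsd17b7, a ketoreductase of late cholesterol synthesis, at 1.53 ± 0.694 TPM, and Mvd, the mevalonate diphosphate decarboxylase, at 3.94 ± 1.48 TPM. Scd1, a stearoyl-CoA desaturase that makes monounsaturated fatty acids, had an SD larger than its mean (4.79 ± 10.2 TPM), whereas its paralog Scd2 was at 42.3 ± 15.8 TPM. All further levels are normalised counts, the expected count of a gene divided by the relative effective size of its library, and are compared only for the same gene.

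The promoters of Hmgcs1, Idi1, Insig1 and Cyp51 are shown because these 4 genes were among the members that varied most closely together between libraries. Each window runs 5′ to 3′ from 250 bases before to 50 bases after the annotated start, from the RefSeq annotation of GRCm38.p6, at chr13:119690101-119690400 (plus strand) for Hmgcs1, chr13:8885356-8885655 (plus strand) for Idi1, chr5:28071162-28071461 (plus strand) for Insig1 and chr5:4104648-4104947 (minus strand) for Cyp51. Capitals mark matches on either strand to 4 motifs. The sterol element bound by SREBPs was searched as TCACNCCAC, the motif of NF-Y as CCAAT, the GC box of Sp1 as GGGCGG, and the E-box of basic helix-loop-helix factors as CACGTG, and matches of different motifs do not overlap in these windows.
Hmgcs1: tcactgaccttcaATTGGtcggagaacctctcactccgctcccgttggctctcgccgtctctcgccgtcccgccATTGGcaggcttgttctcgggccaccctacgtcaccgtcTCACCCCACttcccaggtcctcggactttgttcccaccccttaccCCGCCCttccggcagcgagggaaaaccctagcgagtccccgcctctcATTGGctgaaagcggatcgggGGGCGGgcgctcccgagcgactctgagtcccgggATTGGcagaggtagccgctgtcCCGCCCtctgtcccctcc
Idi1: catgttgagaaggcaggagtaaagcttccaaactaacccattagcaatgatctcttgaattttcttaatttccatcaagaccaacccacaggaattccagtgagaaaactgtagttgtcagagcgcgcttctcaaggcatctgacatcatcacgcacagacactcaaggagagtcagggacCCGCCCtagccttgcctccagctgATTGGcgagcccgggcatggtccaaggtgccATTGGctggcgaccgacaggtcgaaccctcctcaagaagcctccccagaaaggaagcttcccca
Insig1: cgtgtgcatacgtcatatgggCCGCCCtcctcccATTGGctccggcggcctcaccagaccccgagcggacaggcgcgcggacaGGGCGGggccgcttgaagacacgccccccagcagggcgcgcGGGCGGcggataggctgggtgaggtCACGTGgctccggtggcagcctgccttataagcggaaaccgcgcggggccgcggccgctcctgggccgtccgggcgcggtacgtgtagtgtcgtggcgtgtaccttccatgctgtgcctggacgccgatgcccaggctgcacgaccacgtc
Cyp51: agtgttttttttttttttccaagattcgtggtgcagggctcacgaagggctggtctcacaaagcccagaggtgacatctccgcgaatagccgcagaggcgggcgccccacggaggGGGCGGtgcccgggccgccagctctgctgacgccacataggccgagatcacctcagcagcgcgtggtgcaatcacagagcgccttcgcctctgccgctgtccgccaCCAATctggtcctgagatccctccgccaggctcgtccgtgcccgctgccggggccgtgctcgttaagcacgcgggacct

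A promoter was given for 27 of the 34 members and for 27025 genes in all. The 7 members without one were Stard4, Fdps, Fdft1, Sqle, Scd1, Scd2 and Fads1. A gene was counted when any promoter given for it held the motif. CCAAT was found in 22 of the 27 members (81.5%) against 41.06% of all genes with a promoter, and in 13 of the 14 cholesterol enzymes. Of the 7 fatty acid enzymes with a promoter 4 held it. GGGCGG was found in 21 (77.8%) against 38.2%, in 13 of the 14 cholesterol enzymes and 6 of the 6 regulators but in 2 of the 7 fatty acid enzymes (28.6%), below the share of all genes. CACGTG was found in 7 (25.9%) against 8.09%. The sterol element in the spelling searched was found in Hmgcs1, at -137 from the start, and in Mlxipl, which is 7.4% of the 27 members against 1.44% of all genes with a promoter. The matches describe these windows only, and a window without a match says nothing about binding.

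The first question was which members differed between strains. With edgeR's quasi-likelihood test and Benjamini-Hochberg adjustment over 15204 genes, all 34 members had a strain effect at an adjusted p under 0.05, but so did 97.3% of all genes tested, so that the share says nothing particular about these genes.  Srebf1 differed least, with an adjusted p of 0.0385 in the test over strains and none of the 8 strains called against the mean of the other 7, whereas Scd1 in NOD stood 3.10 log2 units above the mean of the other strains. Every log2 fold change given for a strain below is its fitted level minus the equally weighted mean of the other 7 strains with sex as a covariate. Because every strain enters the mean of the others, the 8 comparisons share libraries.

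The balance of higher and lower members differed by strain. In AJ, 19 of the 34 members were called higher and 7 lower, where 24.9% and 32.1% of all genes were. In PWK 13 were higher and 4 lower (23.2% and 21.8% of all genes), and in 129 4 were higher and 11 lower (27.9% and 21%), a balance that turned on the TPM scale. CAST had 5 higher and 11 lower against 26.7% and 31%, and WSB 8 and 11 against 26.5% and 29.7%. In NOD 11 were higher and 14 lower (35.8% and 29.5%), in B6 9 and 10 (25.6% and 27.6%), and in NZO, with 4 libraries, 3 and 6 (19.9% and 14.2%). Without the 12 libraries of opposite sex markers the counts were 1 higher and 6 lower in 129 (12.7% and 8.27% of all genes), 12 and 8 in NOD (32.3% and 22.8%), and 8 and 8 in WSB (24% and 24.7%).

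The split depended on the scale. On log2(TPM + 1), tested with limma, all genes shifted against the mean of the other strains, by medians of 0.18 in 129, 0.10 in PWK, 0.06 in AJ, -0.11 in B6, -0.12 in WSB and -0.18 in CAST, and the members moved with them. Higher and lower members were then 11 and 2 in 129 (42.5% and 8.55% of all genes), 13 and 2 in PWK (20.6% and 9.06%), 19 and 1 in AJ (27.2% and 15.3%) and 10 and 10 in NOD (25.4% and 23.7%). They were 2 and 15 in B6 (7.53% and 35.2%), 3 and 14 in WSB (8.98% and 36.4%), 0 and 25 in CAST (6.96% and 48.7%) and 1 and 1 in NZO (10.6% and 5.28%). With TMM or median-ratio scaling the medians of all genes stayed between -0.02 and 0.03, and the number of members higher or lower changed by at most 2 in each strain.

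The cholesterol enzymes showed the widest contrast between strains. In PWK 11 of the 17 were higher and 1, Ebp, was lower, and in AJ 10 were higher and 4 lower. In 129, 9 of the 17 were lower and 1, Hsd17b7, was higher, but on log2(TPM + 1) 1 was lower and 3 were higher. In WSB 8 were lower and 3 higher. The median log2 fold change of the 17 enzymes was 0.38 in PWK, 0.15 in AJ, -0.13 in WSB and -0.22 in 129, where the medians over all genes tested were 0.01, -0.04, -0.02 and 0.02. On log2(TPM + 1) the medians were 0.45 in PWK, 0.28 in AJ, -0.25 in WSB and 0.01 in 129, so the sign in 129 turned, although all genes stood at 0.18 there and the 17 enzymes lay below that median. On that scale 12 were higher and 1 lower in PWK. Other islet cell markers stood apart in PWK. The summed delta cell markers had a median of 14978 TPM in PWK against 1312 to 8079 TPM in the other strains, the alpha cell markers 29762 TPM in PWK and 30544 TPM in 129 against 6760 to 17651 TPM elsewhere, and the beta cell markers 310801 TPM in PWK. Their part in the result was not tested. AJ had the highest beta cell sum (497873 TPM) and the lowest acinar sum (5488 TPM against 18743 to 95582 TPM elsewhere). With the acinar sum as a covariate 8 of the 17 enzymes were higher and 4 lower in AJ, where 21.8% and 27.5% of all genes were called, and their median was 0.15. Without the 12 libraries of opposite sex markers, 5 of the 17 enzymes were lower in 129 and 0 were higher, and with the adipocyte marker sum as a covariate 4 were lower and 1 higher, where 12.6% and 13.8% of all genes were called lower and higher. The strain median of the adipocyte marker sum was highest in 129 (40.8 TPM against 5.86 to 25.7 in the other strains), but of its 8 genes nearly all of it came from Fabp4, a fatty acid binding protein with a median of 40.6 TPM in 129. Adipoq and Plin1, which define adipocytes, had a median of 0 there and the other 5 medians were at or near 0, so that the covariate is nearly Fabp4 alone. The part of the adipocyte markers was not tested beyond that covariate.

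**Figure D1:**
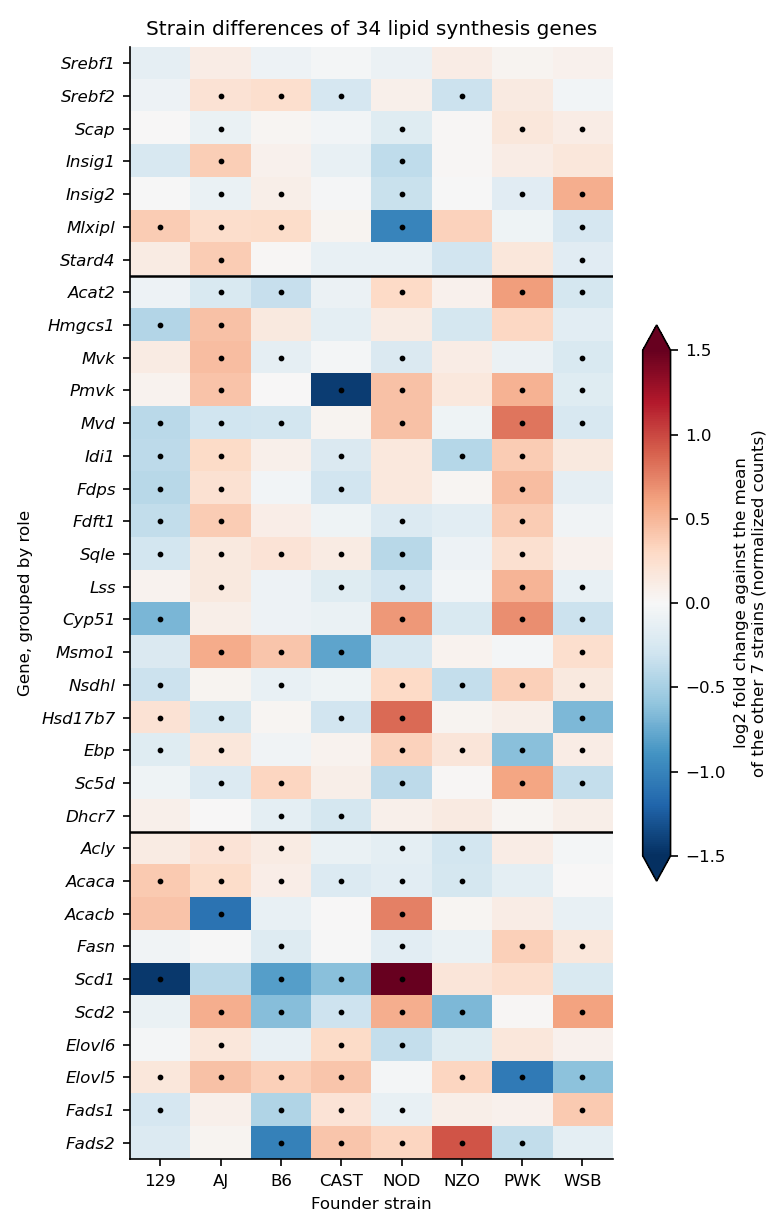
Log2 fold change of each of the 34 members (vertical axis, grouped as regulators, cholesterol enzymes and fatty acid enzymes) in each of the 8 strains (horizontal axis) against the mean of the other 7 strains, with the colour scale in log2 units. The darkest fields are Scd1 in NOD (3.10), Pmvk in CAST (-1.42), Scd1 in 129 (-1.45), Acacb in AJ (-1.11) and Elovl5 in PWK (-1.06).

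Among the regulators, Mlxipl varied most. In NOD the lowest, median and highest normalised counts of Mlxipl were 2092, 5963 and 8437, whereas the medians of the other strains ran from 8994 in WSB to 13237 in NZO. All NOD libraries were below the median of every other strain, with overlap of single libraries. The mean was 5634 ± 2114 (SD, n = 10) in NOD and 12974 ± 1215 (SD, n = 10) in 129 (log2 fold change -0.99, SE 0.12, edgeR adjusted p = 1.87e-11 for NOD). Immune cell markers moved with this result. The sum of Ptprc, Cd3e, Cd79a, Lyz2 and Cd68 ran from 28.7 to 2540.3 TPM in NOD with a median of 397 TPM, against strain medians of 11.4 to 40.6 TPM elsewhere, and none of the 5 was at 0 throughout NOD. With that sum as a covariate the log2 fold change of Mlxipl in NOD was -0.46, SE 0.18, edgeR adjusted p = 0.0817, so it was no longer called.

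Insig2, which retains SCAP in the endoplasmic reticulum, was highest in WSB. Its lowest, median and highest normalised counts were 1043, 1319 and 1502 in WSB and 635, 781 and 885 in NOD, the strain with the lowest mean. These 2 strains did not overlap, and WSB was above each other strain, by an estimated 1.32-fold over the nearest, B6 (edgeR adjusted p = 1.31e-11). On log2(TPM + 1) and log2(TPM + 0.1) Insig2 in WSB was not called above each other strain. Against the mean of the others the log2 fold change on the counts was 0.55 (SE 0.04) in WSB and -0.33 (SE 0.05) in NOD.

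Insig1, itself a target of the SREBPs, was highest in AJ and lowest in NOD. Normalised counts were 3018, 4386 and 7489.6 (lowest, median, highest) in AJ and 1268, 2771 and 4623 in NOD, with wide overlap. AJ was higher (log2 fold change 0.37, SE 0.10, edgeR adjusted p = 0.00126) and NOD lower (log2 fold change -0.38, SE 0.12, edgeR adjusted p = 0.00519) than the mean of the others. The immune markers were high in NOD, and with their sum as a covariate the log2 fold change of Insig1 there was -0.02 (SE 0.20, edgeR adjusted p = 0.959), which was not called. Stard4, a carrier that moves cholesterol between membranes, was also higher in AJ (864 ± 128; log2 fold change 0.38, SE 0.07, edgeR adjusted p = 3.21e-06) and was lower in WSB (614 ± 121; log2 fold change -0.17, SE 0.07, edgeR adjusted p = 0.0346).

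The factors upstream moved less. Srebf2 was higher in B6 (0.25) and AJ (0.21) and lower in NZO (-0.32) and CAST (-0.25) by log2 fold change, with SEs of 0.05 to 0.10. Scap, the sterol sensor, was higher in PWK (0.16) and WSB (0.12) and lower in NOD (-0.18) and AJ (-0.10), the call in NOD being lost with the immune marker covariate. Srebf1 strain means lay between 3183 ± 426 in 129 and 3695 ± 227 in AJ, and the largest of its 28 pairs of strains differed by 0.22 log2 units with an edgeR adjusted p of 0.0956.

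The early steps of cholesterol synthesis, from acetyl-CoA to mevalonate and the isoprenes, held the most widely separated cholesterol enzyme. Pmvk, the phosphomevalonate kinase encoded at chr3:89454541-89469013 (plus strand) of GRCm38, had lowest, median and highest normalised counts of 126, 140.2 and 177 in CAST, while the 77 libraries of the other strains ran from 233 to 664. No CAST library reached the lowest library of another strain. The mean was 145 ± 17.5 (SD, n = 14) in CAST, with a log2 fold change -1.42, SE 0.07, edgeR adjusted p = 2.26e-33, and the nearest strain, WSB, was 2.12-fold higher. PWK (0.52), NOD (0.44) and AJ (0.43) were above the mean of the others.

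Mvd, the next enzyme in the path, was highest in PWK. Its 5 PWK libraries had normalised counts of 215 in the female and 301, 260.5, 236 and 313 in the males, and the medians of the other strains ran from 128 in 129 to 197 in NOD. PWK overlapped the highest NOD and CAST libraries. PWK was above the mean of the others (log2 fold change 0.81, SE 0.11, edgeR adjusted p = 7.75e-10) and above each other strain, by an estimated 1.25-fold over the nearest strain, NOD (edgeR adjusted p = 0.0337), although not above each of them without PWK male library 1 or 4. Acat2, which makes acetoacetyl-CoA, was likewise highest in PWK at 336 ± 51.9 (log2 fold change 0.63), by an estimated 1.22-fold over the nearest strain, NOD, and not above each strain without PWK male library 1, 3 or 4. Reads of Acat2 and its near copy Acat3 may have been divided between both genes, so its level is uncertain. Mvk, the mevalonate kinase, was highest in AJ at 284 ± 31.6 (log2 fold change 0.46, SE 0.06, edgeR adjusted p = 5.36e-11), by an estimated 1.23-fold over the nearest strain, 129, and not above each strain without NZO female library 2 or 3 or with the acinar or the adipocyte marker covariate. On log2(TPM + 1) and log2(TPM + 0.1) neither Acat2 in PWK nor Mvk in AJ was called above each other strain.

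Hmgcs1, the HMG-CoA synthase of the sterol path, was highest in AJ and lowest in 129. Normalised counts were 1430.3, 1992 and 3373 (lowest, median, highest) in AJ and 1062, 1249 and 1614 in 129, which overlapped. AJ was above the mean of the others (log2 fold change 0.44, SE 0.10, edgeR adjusted p = 7.6e-05) and 129 below it (log2 fold change -0.44, SE 0.12, edgeR adjusted p = 0.0012). Hmgcs1 in 129 was no longer called without the 12 libraries of opposite sex markers (-0.35, SE 0.17, edgeR adjusted p = 0.137) or with the adipocyte marker covariate (-0.21, SE 0.18, edgeR adjusted p = 0.417). Idi1, the isopentenyl diphosphate isomerase, had 433, 313 and 320.1 normalised counts in the NZO females and 412 in the male, against 663 as the median of PWK. Its fall in NZO was at the edge of the threshold (log2 fold change -0.43, SE 0.18, edgeR adjusted p = 0.0472).

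From squalene to lanosterol, Lss was the member that set PWK apart. Lss, the lanosterol synthase, had normalised counts of 1306 in the PWK female and 1332, 1446, 1272 and 1428 in the males, and the 86 libraries of the other strains ran from 505 to 1269.8. The 5 PWK libraries were all above the highest library elsewhere, although by a narrow margin. The log2 fold change was 0.51 (SE 0.08; edgeR adjusted p = 2.86e-08), and the nearest strain, AJ, was lower by 1.24-fold. Lss in PWK was not called above each other strain on log2(TPM + 1) or log2(TPM + 0.1). Sqle, the squalene epoxidase, was lower in NOD (-0.41) and 129 (-0.27) and higher in PWK (0.24), B6 (0.20), AJ (0.14) and CAST (0.12). With the immune marker covariate the value of Sqle in NOD was -0.17 (SE 0.09, edgeR adjusted p = 0.214), which was not called. Fdps and Fdft1, which make farnesyl diphosphate and squalene, were lower in 129 (-0.41 and -0.37) and higher in AJ and PWK (0.23 to 0.47).

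Among the enzymes that trim lanosterol to cholesterol, Cyp51, the lanosterol demethylase at chr5:4081145-4104746 (minus strand), separated 129 from PWK and NOD. Normalised counts in 129 were 622, 714 and 856 (lowest, median, highest), those in NOD were 1025, 1531 and 2409, and the PWK libraries held 1676 in the female and 1693, 1694, 1935 and 1779.5 in the males. No 129 library reached either of those strains. 129 was below each other strain, by an estimated 1.25-fold to the nearest, WSB (log2 fold change -0.69, SE 0.09, edgeR adjusted p = 2.39e-09 against the mean of the others), but not below each without the 12 libraries of opposite sex markers, without NZO female library 1 or the NZO male library, with the adipocyte marker covariate or without the sex covariate. Nor was 129 called below each other strain on log2(TPM + 1) or log2(TPM + 0.1). PWK (0.70, SE 0.11) and NOD (0.65, SE 0.08) were higher. Pseudogenes of Cyp51, Fdps and Hsd17b7 may have taken a part of their reads.

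Msmo1, the sterol methyl oxidase, was lowest in CAST at 595, 803 and 1629 normalised counts and highest in AJ at 1342, 1889 and 2749.5 (lowest, median, highest), with overlap. CAST was below each other strain, by an estimated 1.40-fold to the nearest, NOD (log2 fold change -0.80, SE 0.11, edgeR adjusted p = 4.9e-10), and AJ was above the mean of the others (log2 fold change 0.56, SE 0.10, edgeR adjusted p = 6.94e-07). Hsd17b7 had 191, 220.2 and 281 normalised counts in NOD and 66, 88.4 and 149 in WSB, without overlap. NOD was above each other strain, by an estimated 1.47-fold over 129 (log2 fold change 0.85, SE 0.08, edgeR adjusted p = 5.88e-17), and WSB below each, by an estimated 1.27-fold to CAST (log2 fold change -0.68, SE 0.07, edgeR adjusted p = 2.1e-13). With the immune marker sum as a covariate Hsd17b7 in NOD had a log2 fold change of 0.72 (SE 0.15, edgeR adjusted p = 2.49e-04). In that fit, and on log2(TPM + 0.1), NOD was not called above each other strain. WSB was not called below each other strain for Hsd17b7 on log2(TPM + 1) or log2(TPM + 0.1).

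Ebp, the sterol isomerase on chromosome X, was the exception in PWK. Its PWK libraries held 254 normalised counts in the female and 312, 317, 246 and 283 in the males, while all other libraries ran from 327 to 545. Every PWK library was below every other library (log2 fold change -0.63, SE 0.06, edgeR adjusted p = 2.18e-14). Ebp in PWK was not called below each other strain on log2(TPM + 1) or log2(TPM + 0.1). Sc5d, the lathosterol desaturase of a neighbouring step, was instead highest in PWK at 777 ± 12 (log2 fold change 0.59, SE 0.08, edgeR adjusted p = 2.89e-10), by an estimated 1.18-fold over the nearest strain, B6, and not above each strain without the PWK female library or with the adipocyte marker covariate. Nsdhl, a sterol dehydrogenase, was highest in PWK (0.36) and NOD (0.30). Dhcr7, the last enzyme of the list, differed little, with -0.27 in CAST and -0.15 in B6 as its called values.

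**Figure D2:**
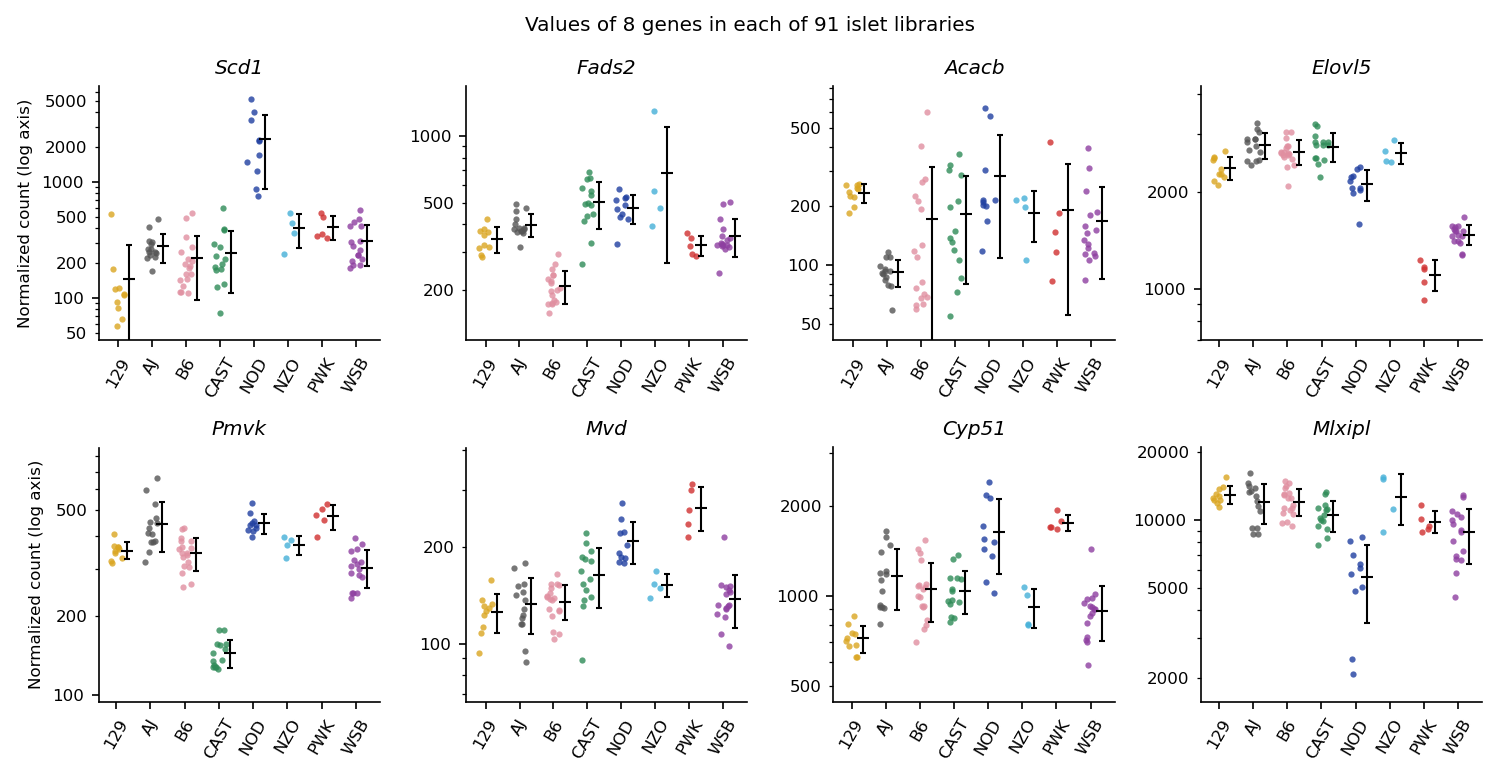
Normalised counts (vertical axes, log scale) of Scd1, Fads2, Acacb, Elovl5, Pmvk, Mvd, Cyp51 and Mlxipl in each library (points) by strain (horizontal axis), with the mean and SD as bars. The NOD points of Scd1 (754 to 5194) lie above all others, and the CAST points of Pmvk (126 to 177) and the PWK points of Elovl5 (929 to 1232) below.

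The fatty acid enzymes held the largest single differences. Scd1, at chr19:44394455-44407879 (minus strand), had normalised counts of 1712, 2315, 2262, 4052 and 3451 in the NOD females and 1503, 876, 1239, 754 and 5194 in the NOD males, whereas the 81 libraries of the other strains ran from 57.6 to 593. All NOD libraries were above all others, and they were widely spread among themselves. NOD averaged 2336 ± 1464 (SD, n = 10), with a log2 fold change 3.10, SE 0.19, edgeR adjusted p = 1.03e-25, and the nearest strain, PWK at 415 ± 98.7, was lower by 5.64-fold (edgeR adjusted p = 4.09e-07). Scd1 was lower in 129 (log2 fold change -1.45, SE 0.27, edgeR adjusted p = 4.36e-06), but not called there without the 12 libraries of opposite sex markers (log2 fold change -0.86, SE 0.37, edgeR adjusted p = 0.0904). Its calls in B6 (-0.82) and CAST (-0.62) were both lost with the immune marker covariate (-0.32, SE 0.15, edgeR adjusted p = 0.0745 in B6 and -0.09, SE 0.17, edgeR adjusted p = 0.668 in CAST) and when NOD was left out, an alternative chosen after seeing the data. The call in CAST was also lost with the adipocyte marker covariate (-0.29, SE 0.29, edgeR adjusted p = 0.437).

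Scd1 moved with the immune markers in NOD. The 4 NOD libraries with the lowest immune marker sums (28.7, 61.95, 88.9 and 190.4 TPM) held 876, 754, 1239 and 1503 normalised counts of Scd1, and the 3 with the highest sums (1496, 1542 and 2540.3 TPM) held 3451, 4052 and 5194. Library by library the larger sums went with the larger counts, with few exceptions. With the immune marker sum as a covariate over all 91 libraries, the log2 fold change of Scd1 in NOD was 0.83, SE 0.29, edgeR adjusted p = 0.0429, smaller than without it but still called. With the adipocyte marker sum it was 3.13, SE 0.19, edgeR adjusted p = 4.97e-26. That sum ran from 8.4 to 26.3 TPM in NOD with a median of 11.1 TPM, nearly all of it Fabp4 (median 10.97 TPM), while 1 of the 8 markers, Lep, was at 0 throughout NOD, and the medians of Retn, Car3 and Cidec were under 0.1 TPM. The immune covariate also reduced the members called in NOD from 25 to 8, of which 6 were higher and 2 lower, where 7.83% and 7.25% of all genes were called higher and lower in that fit. Those higher were Cyp51 (0.92), Scd1, Hsd17b7, Scd2 (0.63), Pmvk (0.54) and Ebp (0.27), and those lower were Sc5d (-0.49) and Insig2 (-0.24). The calls in NOD of the other 17, which were Insig1, Scap, Mlxipl, Acat2, Mvk, Mvd, Fdft1, Sqle, Lss, Nsdhl, Acly, Acaca, Acacb, Fasn, Elovl6, Fads1 and Fads2, were lost. For 13 of them the log2 fold change was nearer 0 or of the other sign, such as Lss (-0.29, SE 0.06 without and -0.00, SE 0.10 with the covariate) and Elovl6 (-0.36, SE 0.07 without and -0.07, SE 0.12 with the covariate), whereas for Mvk (-0.21, SE 0.07 without and -0.23, SE 0.12 with the covariate), Acaca (-0.15, SE 0.05 without and -0.22, SE 0.10 with the covariate), Acacb (0.75, SE 0.24 without and 0.93, SE 0.43 with the covariate) and Fasn (-0.16, SE 0.06 without and -0.20, SE 0.11 with the covariate) it was as large or larger and the SE had grown.

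**Figure D3:**
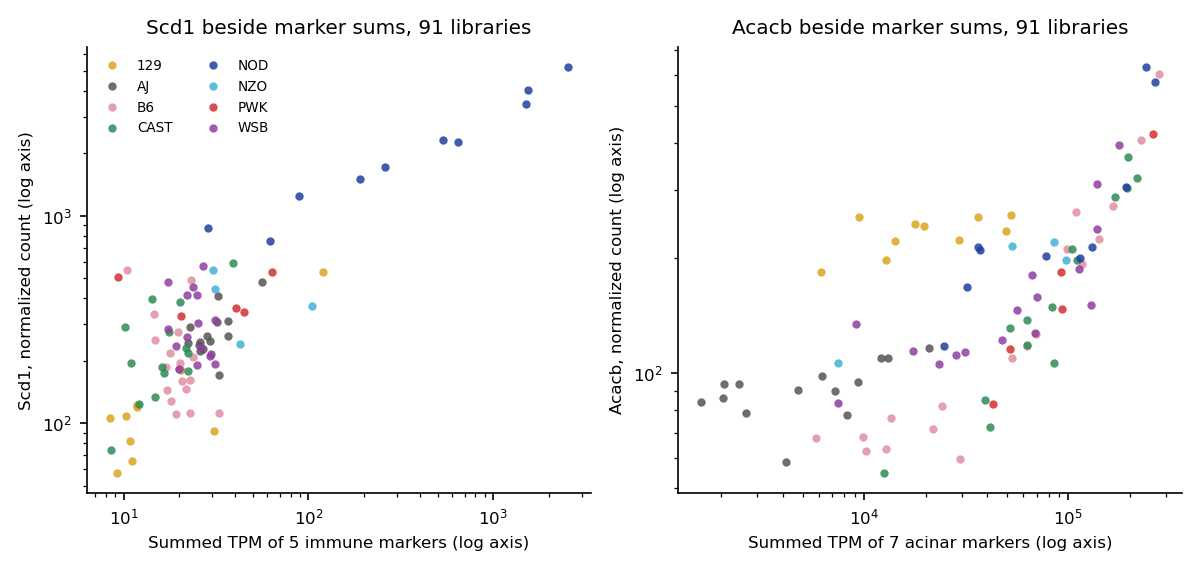
Normalised counts of Scd1 against the summed TPM of the immune markers and of Acacb against the summed TPM of the acinar markers in the 91 libraries (points, coloured by strain; log axes). NOD libraries reach 2540.3 TPM of immune markers and 5194 counts of Scd1, and AJ libraries hold the lowest acinar sums and low counts of Acacb.

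Acacb was lowest in AJ, with 58.7, 91.9 and 116 normalised counts (lowest, median, highest) against medians of 114 in B6 to 239 in 129. The AJ libraries overlapped the low end of the other strains. The mean was 91.5 ± 14.9 (SD, n = 14) in AJ (log2 fold change -1.11, SE 0.24, edgeR adjusted p = 4.85e-05) and 284 ± 175 (SD, n = 10) in NOD (log2 fold change 0.75, SE 0.24, edgeR adjusted p = 0.00396). The summed level of 7 acinar enzymes moved with it, with a median of 5488 TPM in AJ and of 18743 to 95582 TPM in the other strains, highest in NOD, and none of the 7 at 0 throughout a strain. With the acinar sum as a covariate the sign turned in AJ, to a log2 fold change of 0.40, SE 0.15, edgeR adjusted p = 0.0235, and in NOD it was 0.19, SE 0.13, edgeR adjusted p = 0.214. Acaca, the cytosolic carboxylase that makes malonyl-CoA, was higher in 129 (0.39) and AJ (0.28) and lower in NZO (-0.26), CAST (-0.21) and NOD (-0.15).

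Elovl5, an elongase of polyunsaturated fatty acids at chr9:77917364-77984519 (plus strand), was low in PWK and WSB. The PWK libraries held 1232 normalised counts in the female and 1157, 1172, 1055 and 929 in the males, against 1278, 1491 and 1675 (lowest, median, highest) in WSB and a median of 2801 in AJ. PWK was below all other libraries (1278 to 3251; log2 fold change -1.06, SE 0.07, edgeR adjusted p = 1.22e-24), and the nearest strain, WSB, was 1.31-fold higher but itself low (log2 fold change -0.61, SE 0.04, edgeR adjusted p = 2.98e-25). Elovl5 in PWK was not called below each other strain on log2(TPM + 1) or log2(TPM + 0.1). Elovl6, which elongates palmitate, was higher in CAST (0.28) and AJ (0.17) and lower in NOD (-0.36).

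The desaturases Fads1 and Fads2, which act with Elovl5 on polyunsaturated fatty acids and are neighbours on chromosome 19 at chr19:10182888-10196877 (plus strand) and chr19:10062765-10101746 (minus strand), were both lowest in B6. Fads2 had 158, 203 and 293 normalised counts (lowest, median, highest) in B6 and 264, 495 and 687 in CAST, so that only the lowest CAST and the highest B6 libraries overlapped. B6 was 1.48-fold below its nearest strain PWK (log2 fold change -1.01, SE 0.08, edgeR adjusted p = 2e-19 against the mean of the others). NZO was the highest, with 567, 391 and 475 in the females and 1298 in the male library (log2 fold change 0.95, SE 0.13, edgeR adjusted p = 2.6e-09). The male library decided the size of that value, which fell to 0.48, SE 0.14, edgeR adjusted p = 0.00645 without it. The 3 female libraries lay within the values of CAST, and without the male library NZO was no longer above each other strain (log2 difference from CAST -0.01, SE 0.16, edgeR adjusted p = 0.98). Fads1 was lowest in B6 at 1047 ± 90 (log2 fold change -0.45, SE 0.04, edgeR adjusted p = 6.87e-17) and highest in WSB at 1745 ± 212 (log2 fold change 0.39, SE 0.04, edgeR adjusted p = 3.51e-14), with nearest strains 1.13-fold and 1.12-fold away. Fads1 in B6 was not below each other strain without the 12 libraries of opposite sex markers or with the adipocyte marker covariate. On log2(TPM + 1) and log2(TPM + 0.1) neither Fads1 in WSB nor Fads2 in NZO was called above each other strain.

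Scd2, the main stearoyl-CoA desaturase of these islets by TPM, had 5621, 7259 and 8812 normalised counts in WSB and 2639, 3311 and 4478 in B6 (lowest, median, highest), again without overlap. WSB (log2 fold change 0.61, SE 0.08, edgeR adjusted p = 7.06e-10), AJ (0.55) and NOD (0.55) were higher, and NZO (log2 fold change -0.68, SE 0.16, edgeR adjusted p = 5.89e-04), B6 (-0.64) and CAST (-0.30) lower. Scd1, Scd2, Scd3 and Scd4 are close paralogs whose reads may have been divided between them. Fasn, the fatty acid synthase, was higher in PWK (0.36) and WSB (0.17) and lower in B6 (-0.20) and NOD (-0.16). Acly, the most abundant member, ranged from -0.28 in NZO to 0.20 in AJ.

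Strain-selective members were those that differed in the same direction from each of the 7 other strains, each pair at an edgeR adjusted p under 0.05. By this rule 10 of the 34 members were higher in 1 strain, where 25.7% of all genes tested were, and 10 were lower in 1 strain, where 21.7% were. The members' shares are thus near those of all genes. PWK was higher for Mvd, Acat2, Sc5d and Lss and lower for Ebp and Elovl5. WSB was higher for Insig2 and Fads1 and lower for Hsd17b7, NOD higher for Scd1 and Hsd17b7 and lower for Mlxipl, and AJ higher for Mvk and lower for Acacb. NZO was higher for Fads2 through its male library, without which the rule did not hold, B6 lower for both Fads1 and Fads2, CAST lower for Pmvk and Msmo1, and 129 lower for Cyp51. The smallest fold to the nearest strain ran from 1.12-fold (Fads1 in WSB) to 5.64-fold (Scd1 in NOD). Of the 20, 17 to 20 held the rule when single NZO or PWK libraries were left out, Acacb in AJ being lost in 4 of these 9 fits. Without the 12 libraries of opposite sex markers 17 held it, with Cyp51 in 129, Fads1 in B6 and Acacb in AJ lost, and 17 held it with the immune marker covariate, where Scd1, Hsd17b7 and Mlxipl in NOD were lost. With the adipocyte covariate 15 held it, without Sc5d in PWK, Mvk and Acacb in AJ, Cyp51 in 129 and Fads1 in B6. With the acinar covariate 18 held it, without Mvk and Acacb in AJ. On log2(TPM + 1) 9 held it. Lost there were Insig2, Fads1 and Hsd17b7 in WSB and Acat2, Lss, Ebp and Elovl5 in PWK. Mvk and Acacb in AJ, Fads2 in NZO and Cyp51 in 129 were lost as well. On log2(TPM + 0.1) 8 held it, with Hsd17b7 in NOD lost in addition.

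The second question was whether the sexes differed. In the 46 libraries labelled male, 9 members were higher than in the 45 labelled female and 0 were lower, where 2.07% and 1.94% of all genes were called higher and lower. The 9 were Insig1 and the carrier Stard4 of the regulator group and the cholesterol enzymes Hmgcs1, Idi1, Fdft1, Cyp51, Msmo1, Hsd17b7 and Ebp. Stard4 and Msmo1 were at the edge of the threshold. The call of Stard4 (log2 fold change 0.17) was lost without the NZO male library (0.17, edgeR adjusted p = 0.051), without the PWK female library (0.17, edgeR adjusted p = 0.0503) and with no filter on low counts (0.17, edgeR adjusted p = 0.0515). That of Msmo1 (0.23) was lost without the PWK female library (0.24, edgeR adjusted p = 0.051), with the adipocyte marker covariate (0.23, edgeR adjusted p = 0.0509), with no filter (0.24, edgeR adjusted p = 0.0557) and with limma-voom (0.21, limma adjusted p = 0.0722), and both were lost without NOD. All 17 cholesterol enzymes had a positive log2 fold change, with a median of 0.10 where the median of all genes was -0.00208, and 0 of the 10 fatty acid enzymes were called. With TMM or median-ratio scaling 10 members were higher (2.1% of all genes by both) and 0 lower (1.86% and 1.9%), and on log2(TPM + 1) the median of the 17 cholesterol enzymes was 0.05 where all genes stood at -0.03.

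Normalised counts of Insig1 were 1268, 4204 and 7489.6 (lowest, median, highest) in the libraries labelled male and 1791, 3344 and 4830.0 in those labelled female. The sexes overlapped over most of their range, and the highest libraries were labelled male. The mean was 4321 ± 1284 against 3379 ± 702 (SD; log2 fold change 0.35, SE 0.07, edgeR adjusted p = 0.00134). Hmgcs1 had 949, 1818 and 3373 against 953, 1406 and 2713 (log2 fold change 0.33, SE 0.07, edgeR adjusted p = 0.00178), and Idi1 had 275, 571 and 1065 against 271, 461 and 741 (log2 fold change 0.30, SE 0.07, edgeR adjusted p = 0.00402). These also overlapped widely. Hsd17b7 (log2 fold change 0.23, SE 0.05, edgeR adjusted p = 0.00356) and Ebp (log2 fold change 0.11, SE 0.03, edgeR adjusted p = 0.00477) were smaller in size.

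Without the 12 libraries of opposite sex markers, 15 members were higher in males and 1, Acly, was lower, where 4.88% and 4.86% of all genes were called. The log2 fold change of Insig1 was then 0.45 (SE 0.06) and that of Hmgcs1 0.37 (SE 0.07). In AJ, B6, CAST and WSB with the number range as a covariate, a fit chosen after seeing the data, 9 were higher and 1, Acly, lower, where 2.74% and 2.99% of all genes were. Those 9 held Srebf2 and Fdps but not Stard4 and Msmo1, whose calls were lost in that fit (edgeR adjusted p = 0.0646 and 0.0767). By strain, the fitted difference of Insig1 was 0.61 in AJ, 0.62 in NOD, 0.36 in B6, 0.34 in WSB, 0.15 in CAST and -0.07 in 129, where 6 of 10 libraries went against the label. Differences of at least 0.5 log2 units were called for 0 members, and for 0.487% of all genes. On log2(TPM + 1) the limma test called 0 of the 34, where 0.164% and 0.539% of all genes were called higher and lower. The log2 fold changes there were 0.27, SE 0.09 for Insig1, 0.25, SE 0.08 for Hmgcs1, 0.22, SE 0.08 for Idi1 and 0.18, SE 0.07 for Fdft1, somewhat smaller than on the counts, and all 9 members called on the counts kept a positive sign. On log2(TPM + 0.1) the test also called 0 of the 34.

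**Figure D4:**
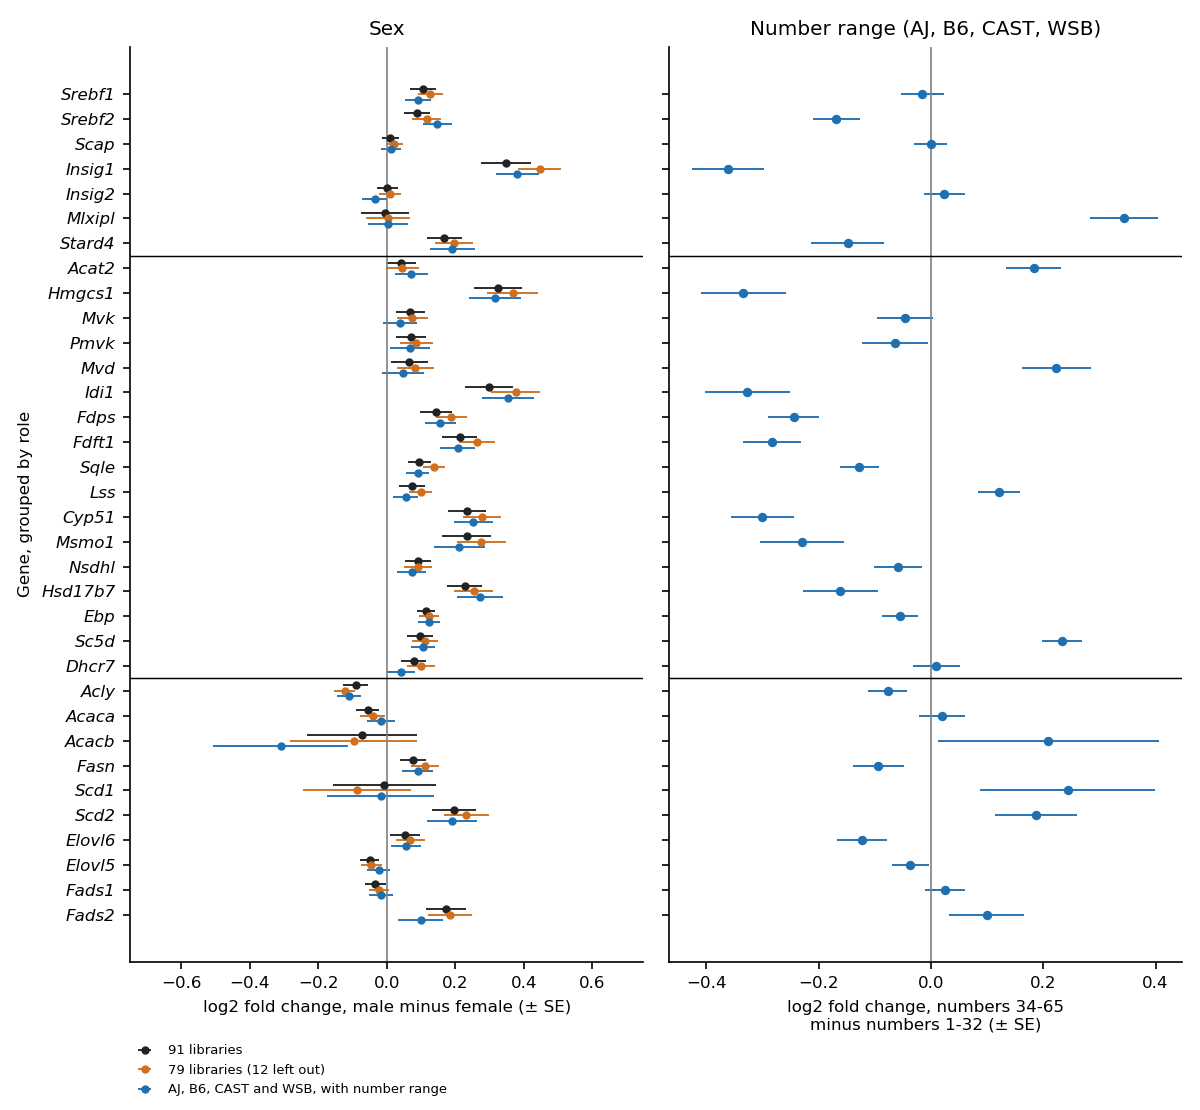
Log2 fold change with SE (horizontal axes) of each of the 34 members (vertical axis) for libraries labelled male against female in all 91 libraries, in the 79 whose sex markers match the label and in AJ, B6, CAST and WSB with the number range in the fit, and, on the right, for running numbers 34 to 65 against 1 to 32. The cholesterol enzymes lie right of 0 for sex, and Insig1 (-0.36), Hmgcs1 (-0.33) and Idi1 (-0.33) lie left of 0 for the number range.

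Whether the sex difference varied by strain was tested in 82 libraries, those of 129, AJ, B6, CAST, NOD and WSB, since NZO and PWK have a single library of one sex. The interaction passed for 3 members (Srebf2, Pmvk and Acacb), which is 8.8% where 5.87% of all genes passed. Acacb gave edgeR adjusted p = 0.00132, with 95.8 ± 65.4 normalised counts in B6 males against 247 ± 167 in B6 females, (SD, n = 9 each) but 385 ± 203 in NOD males against 182 ± 40.2 in NOD females (SD, n = 5 each). The median acinar marker sums ran the same way, with 13501 TPM in B6 males and 116904 in B6 females, and 191662 in NOD males and 36962 in NOD females. Srebf2 (edgeR adjusted p = 0.027) was higher in AJ males by 0.32 and in B6 males by 0.22 log2 units and had -0.15 in CAST and -0.13 in NOD. Pmvk passed at an edgeR adjusted p of 0.0114, with fitted differences from -0.27 in WSB to 0.41 in AJ. Without the 12 libraries of opposite sex markers 5 members passed, with Scd1 and Srebf1 in addition, where 17.5% of all genes passed.

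Libraries of AJ, B6, CAST and WSB also differed by running number. Between numbers 34 to 65 and 1 to 32, with strain and sex in the fit, 6 members were higher and 11 lower, where 28.8% and 15.5% of all genes were. Insig1 had 2878, 4310.0 and 7489.6 normalised counts (lowest, median, highest) in numbers 1 to 32 and 2353, 3598 and 5456 in 34 to 65. The later numbers were lower on the whole, with overlap (log2 fold change -0.36, SE 0.06, edgeR adjusted p = 4.39e-06). Hmgcs1 (-0.33), Idi1 (-0.33), Cyp51 (-0.30) and Fdft1 (-0.28) fell with it, and Mlxipl (0.34), Sc5d (0.23) and Mvd (0.22) rose. The sexes were spread over both ranges in each of the 4 strains. The size of these differences, up to 0.36 log2 units, is like that of the differences between the labelled sexes.

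Within a strain, a set of sterol genes varied together between libraries. The correlation of Hmgcs1 with Idi1 was computed in each of the 6 strains with at least 6 libraries, on log2 normalised counts with 1 added. Pearson's r ran from 0.80 to 0.97 and Spearman's rho from 0.64 to 0.96, and all 6 passed a two-sided permutation test of 100000 resamples, adjusted over 30 relations (largest adjusted p 0.0193). Leaving out the pair of libraries farthest from the median of Hmgcs1 left r between 0.54 and 0.96. Hmgcs1 and Insig1 gave r from 0.72 to 0.95 and rho from 0.74 to 0.95, all 6 passing the permutation test (largest adjusted p 0.0343), although in 129 r was 0.32 without the 2 most extreme libraries, so that the relation there rests on them.

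Relations that involve fatty acid synthase were weaker on the normalised counts. Srebf1 and Fasn gave r from 0.40 to 0.79, of which 3 of 6 passed the adjusted permutation test by r and 1 by rho. Acly and Fasn gave -0.51 to 0.36 and Hmgcs1 and Fasn -0.25 to 0.64, and none of these 12 passed. On log2(TPM + 1) the median r over the 6 strains was 0.47 in place of 0.08 for Hmgcs1 and Fasn and 0.49 in place of 0.30 for Acly and Fasn, so that how weak these relations are depends on the scale. For Srebf1 and Fasn the sign turned in AJ, a strain that passed by r on the counts, from 0.63 to -0.47 on TPM. In 129 r of this pair was 0.26 in place of 0.40, and in B6 it was 0.93 in place of 0.79. Because libraries differ by number range within AJ, B6, CAST and WSB, r was recomputed in the 8 groups of 1 strain and 1 range, with 6 to 10 libraries each. There r ran from 0.71 to 0.98 for Hmgcs1 and Idi1, with 5 of 8 passing the permutation test (exact below 10 libraries) adjusted over 40 relations, and from 0.70 to 0.98 for Hmgcs1 and Insig1, with 3 of 8 passing. It ran from 0.11 to 0.91 for Srebf1 and Fasn (1 of 8), -0.46 to 0.76 for Acly and Fasn and -0.52 to 0.73 for Hmgcs1 and Fasn (0 of 8 each).

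Over all 91 libraries with strain and sex means removed, the highest of the 561 pairs of members was Insig1 with Hmgcs1 at r = 0.83. Of all pairs, 21 had r of at least 0.7, and all 21 lay among 9 genes: Insig1, Stard4, Hmgcs1, Idi1, Fdps, Fdft1, Sqle, Cyp51 and Msmo1. The median r of the 136 pairs of cholesterol enzymes was 0.21, and 0.19 with number range means also removed, while the median over all pairs of genes tested was 0.0075. These are descriptions over libraries that share strain, sex and preparation. Several cholesterol enzymes thus stood outside this set, Pmvk, Mvd, Ebp and Hsd17b7 among them.

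**Figure D5:**
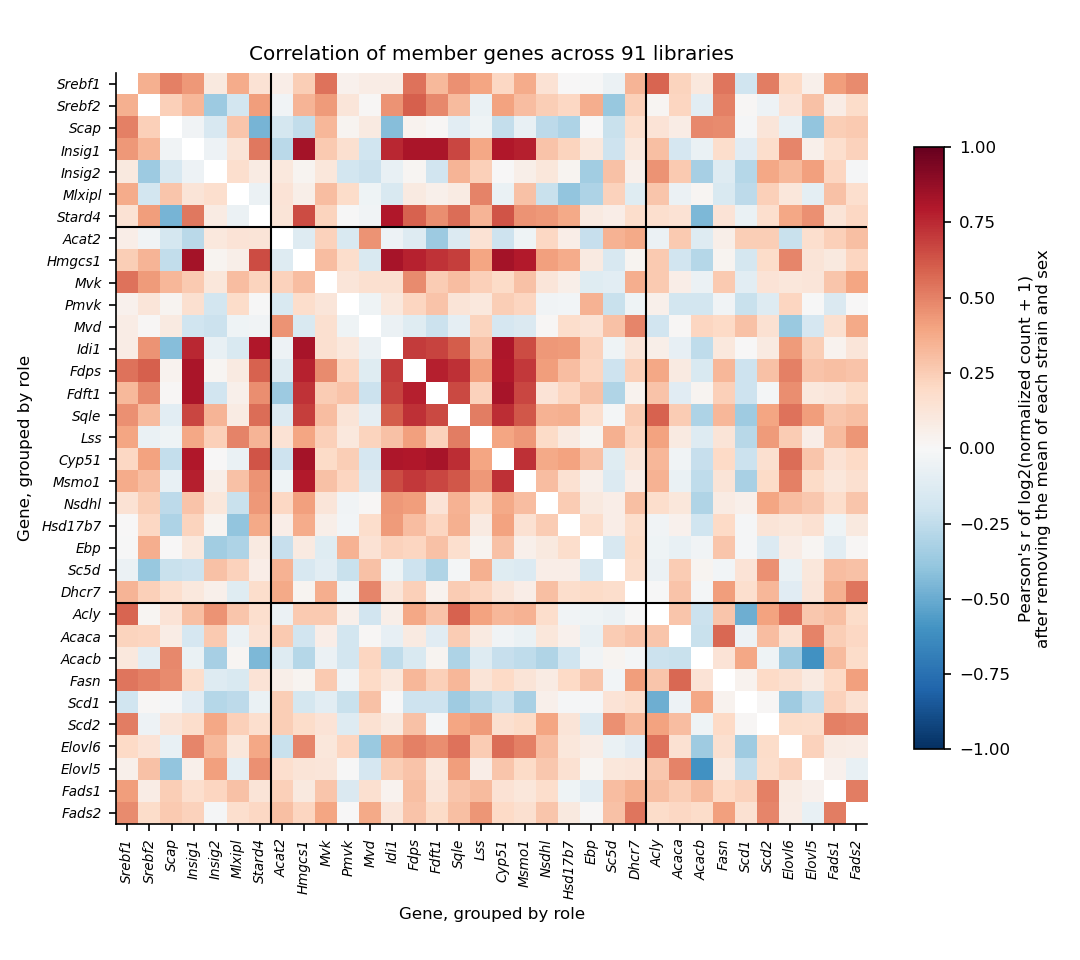
Pearson's r of each pair of the 34 members over 91 libraries after removal of strain and sex means (both axes list the members, grouped by role; colour gives r). The strongest fields join Insig1, Stard4, Hmgcs1, Idi1, Fdps, Fdft1, Sqle, Cyp51 and Msmo1, with r up to 0.83.

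Other genes of these pathways were counted from 2 further lists, 15 genes of sterol handling and 24 of fatty acid handling, all tested and all 39 with a strain effect, as had 97.3% of all genes. Called higher and lower in 129 were 4 and 2 of the sterol list and 7 and 6 of the fatty acid list, where 27.9% and 21% of all genes were. AJ had 1 and 4 of the sterol list and 8 and 9 of the fatty acid list (24.9% and 32.1% of all genes). In B6 it was 5 and 3 of the sterol list and 7 and 8 of the fatty acid list (25.6% and 27.6%), and in CAST 5 and 6 of the sterol list and 8 and 8 of the fatty acid list (26.7% and 31%). NOD had 7 and 6 of the sterol list and 9 and 9 of the fatty acid list (35.8% and 29.5%), and NZO 8 and 4 of the sterol list and 8 and 4 of the fatty acid list (19.9% and 14.2%). The counts were 2 and 5 of the sterol list and 7 and 5 of the fatty acid list in PWK (23.2% and 21.8%) and 5 and 5 of the sterol list and 9 and 6 of the fatty acid list in WSB (26.5% and 29.7%).

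Differences of at least 1 log2 unit were seen for 4 of these genes. Elovl7, an elongase of very long chain fatty acids, was 365 ± 43.7 normalised counts in 129 (log2 fold change 2.07, SE 0.13), and lower in AJ (-1.75, SE 0.15) and PWK (-1.55, SE 0.25). Fads3, a relative of Fads1 and Fads2, was lower in 129 (-1.08, SE 0.21) and higher in NZO (1.17, SE 0.25). Scd3 was nearly undetected in PWK at 2.30 ± 1.76 normalised counts (-4.47, SE 0.31) and higher in AJ (1.26, SE 0.11). Scd4 was higher in PWK (1.92, SE 0.27) and lower in NZO (-2.05, SE 0.46) and B6 (-1.03, SE 0.21), and as paralogs Scd3 and Scd4 carry the same doubt as Scd1. In libraries labelled male, Hsd17b12, a ketoreductase of fatty acid elongation, was higher (log2 fold change 0.40, SE 0.06) and Dgat2, which makes triglyceride, lower (-0.62, SE 0.13), the only genes of the fatty acid list called. In the sterol list 0 were higher and 1 lower, where 2.07% and 1.94% of all genes were called.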

How the data were processed

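mRNA libraries of whole islets were made with the KAPA Hyper Prep Kit, and the authors quantified genes with RSEM on GENCODE vM18 (mm10). The RSEM version, and whether reads were aligned to each strain's own sequence, are not given in the sources used here. The authors deposited 1 table per library with expected counts, which carry no scaling between libraries. In the same files the authors deposited TPM values, which sum to the same total in each library. Each file was taken as 1 library, and its strain and sex came from the sample labels.

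Expected counts were rounded. Of 54146 genes, 54079 matched GENCODE M21 (GRCm38), from which coordinates were taken. Protein-coding genes of chromosomes 1 to 19 and X were kept, the lowest 10% of variance removed, and genes non-zero in at least 85% of libraries retained, which left 15204. edgeR 4.0.16 (R 4.3.3) fitted strain and sex over 91 libraries with upper-quartile normalisation and its robust quasi-likelihood test, and p-values were adjusted by Benjamini-Hochberg over all genes tested, separately within each comparison, with a threshold of 0.05. Each strain was set against the equally weighted mean of the other 7 and against each in 28 pairs. The strain by sex interaction used 82 libraries, and the comparison of running numbers used 62 libraries with strain and sex as covariates. A count of 3, taken as the floor of detection, was 0.0852 to 0.1772 CPM, which covers counting error only.

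Alternatives were TMM and median-ratio scaling, limma-voom and DESeq2 1.42.0, other filters, limma 3.58.1 on log2(TPM + 1) or log2(TPM + 0.1), a minimum log2 fold change of 0.5, no sex covariate, marker sums as covariates, and leaving out the 12 libraries of opposite sex markers or each NZO and PWK library. One marker of the immune list chosen at the outset was left out of its sum and is not reported here. The edgeR script was tested on simulated data. The 34 members, the further lists and the alternatives were chosen with earlier results of these data known. Named were the 4 members of each role with the largest range between strains, the 3 largest calls of each strain, the strain-selective members, the 5 smallest p-values for sex, the 3 highest and lowest by TPM and the members of 5 correlated pairs, with others given by counts or fold changes.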

Additional observations from a re-analysis of the deposited data

Results flagged for a closer look

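Single libraries stood apart from the rest of their strain, by the gap to the nearest library relative to the range, in 8 of the 136 member and strain groups of 4 to 10 libraries examined, and chance gives about 1 in 20 such groups. In 129, male library 5 had 1087 normalised counts of Fdft1, where the other 9 had 850 to 962, and 536 of Scd1, and its immune marker sum of 120.3 TPM was the highest of the strain. Female library 5 of 129 had 689 counts of Elovl6, below its strain. In NZO, female library 3 had 116 counts of Hsd17b7 where the other 3 libraries had 137 to 140, female library 1 had 30893 counts of Acly and 106 of Acacb, and the male library had 685 of Elovl6. Male library 3 of NOD had 1586 counts of Elovl5.

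The sex difference varied by strain for Srebf2 (interaction, edgeR adjusted p = 0.027), Pmvk (0.0114) and Acacb (0.00132). For Acacb the fitted log2 difference of males from females was -1.35 in B6, 1.07 in NOD and 0.76 in WSB, and the acinar marker sums of these groups moved alongside. Their part in the result was not tested.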

How the results depend on the processing

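Requiring a log2 fold change of at least 0.5 left 0 members for sex (0.487% of all genes) and 0 for the number range (6.91%), 2 in 129 (18.9%), 3 in AJ (20.5%), 3 in B6 (19.3%), 3 in CAST (23.3%), 6 in NOD (30.7%), 2 in NZO (19.3%), 8 in PWK (23.3%) and 4 in WSB (18.9%), and 2 higher (14.7%) and 4 lower (9.66%) in 1 strain than in each other. Without the 12 libraries of opposite sex markers 16 members had a sex effect in place of 9 (9.74% of all genes), 5 in place of 3 an interaction (17.5%), and 7 in place of 15 were called in 129 (21%). With the adipocyte marker covariate 9 were called in 129 (26.4% of all genes) and 11 in place of 19 in WSB (35.2%), and with the immune marker covariate 8 in place of 25 in NOD (15.1%). On log2(TPM + 1) and log2(TPM + 0.1), 0 members had a sex effect, 25 in place of 16 were called in CAST (55.6% and 55.2% of all genes) and 2 in place of 9 in NZO (15.9% and 16.1%), and on the former the median r of Hmgcs1 and Fasn was 0.47 in place of 0.08. Leaving out single NZO or PWK libraries gave 33 to 34 members with a strain effect, 7 to 9 with a sex effect, 15 to 17 called in 129, 25 to 26 in AJ, 16 to 19 in B6, 15 to 16 in CAST, 25 to 26 in NOD, 6 to 9 in NZO, 15 to 17 in PWK and 17 to 21 in WSB, and 8 to 10 higher and 8 to 10 lower in 1 strain than in each other. With the acinar covariate Acacb in AJ turned from -1.11 to 0.40. Of the other values of named members under the alternatives, 699 kept their direction and call and 47 lost the call, among them Idi1 in NZO in 9 alternatives, although its log2 fold change lay between -0.55 and -0.37 in all that were run. The causes were not tested. No paired analysis was possible because the labels give no numbers that pair libraries across strains. NZO and PWK, with 4 and 5 libraries and 1 of one sex, limit what can be said of sex in these strains.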
